A study of Mus musculus with 7 samples.

Results

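The genes described here encode the enzymes that remove peroxides and superoxide and keep protein thiols reduced, together with the transcription factor NRF2 and its inhibitor. A list of 35 genes was taken, and each was represented by its brightest probe set among those that the platform annotation assigns to a single gene. Of the 35 genes, 32 had such a probe set, out of 12394 genes with one on the array. Prdx1 was left out because each of its 5 probe sets lists a further gene, and no probe set was listed for Prdx5 or Prdx6. Gpx3, a secreted glutathione peroxidase, was below background on all 7 arrays, with signals from 4.0 to 10.9 against a background level of 13.64. The other 31 genes passed a filter on dim probe sets and were tested, among 8077 genes in all.

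The arrays measured RNA of LSK cells (Lin-, Sca-1+, c-Kit+) from femoral and tibial bone marrow, a sort in which stem cells of the blood and their first progeny are found. Lkb1 KO samples (4, numbered 4 to 7) came from adult Lkb1 L/L, rosa26CreERT2 mice, and Lkb1 WT samples (3, numbered 5 to 7) from Lkb1 L/L mice without the Cre transgene. Their common genetic stock was C57BL/Ka-CD45.2:Thy-1.1. All carried the floxed alleles and received tamoxifen for 5 days, and cells were sorted 1 day later. Cre was present in KO mice alone, and the Rosa26 locus that drives it is active in most cell types, not in blood cells alone. Whether each sample was a separate animal is not in the labels, and the p-values therefore rest on differences among these samples that may be technical.

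Peroxides are reduced by peroxiredoxins and glutathione peroxidases, which draw their electrons from NADPH through thioredoxin or through glutathione. Glutathione S-transferases join glutathione to reactive lipids and foreign compounds. The transcription factor NRF2 (gene Nfe2l2), held in check by KEAP1, drives many of these genes through antioxidant response elements, and stem cells of the bone marrow are known to be sensitive to reactive oxygen species.

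Values below are log2(signal + 16) after quantile normalization, and fold changes are KO minus WT on that scale with the standard error (SE) from limma. A gene was called at a Benjamini-Hochberg adjusted p under 0.05 over all 8077 genes. As deposited, the KO arrays were brighter, and their trimmed mean was 388.5 ± 30.6 (SD, n = 4) signal units against 297.4 ± 59.3 in WT (SD, n = 3; exact permutation p = 0.0286, the smallest possible). The ratio of a control probe set at the 3' end to that at the 5' end grows as RNA gets shorter. For Actb it was 11.4 to 12.3 on KO arrays, below the 12.6 to 13.1 of WT arrays (p = 0.0571 by exact permutation). For Gapdh the groups overlapped (p = 0.6 by exact permutation). Its WT arrays ran from 6.68 to 9.46, and the KO arrays, at 7.49 to 7.95, lay inside that range. All 9 tested stem and progenitor markers, Kit, Cd34 and Flt3 among them, lay above background on every array, although 2 of the 9 fell, namely Hlf (-0.84) and Kit (-0.43). With the signals as deposited neither was called, at -0.40 (Hlf, adjusted p = 0.176) and 0.01 (Kit), and Kit was lost without any one sample. The markers' summed normalized signal was 14810 to 15558 in KO against 18018 to 19925 in WT. Of 14 tested markers of mature granulocytes and monocytes 10 fell. The summed normalized signal of the 14 was 13906 to 20327 in KO against 34669 to 47259 in WT. The list was not uniform, since Csf1r (0.75), Itgam (0.40) and Cd14 (0.45) were higher in KO and Fcgr3 was at -0.04, none of them called. Of 8 erythroid markers 1 fell (summed signal 3394 to 4465 in KO and 4918 to 6494 in WT), and so did 1 of 6 megakaryocyte markers (2909 to 4508 and 5375 to 5697). Of 5 mast cell and basophil markers 2 rose (2240 to 2927 in KO and 1595 to 1702 in WT), against 4 with the signals as deposited and 0 without any one sample. Neither of 2 tested B cell markers was called, the single tested endothelial or stromal marker fell, and no T or NK cell marker passed the filter. Leaving out each sample in turn left 8 to 10 granulocyte and monocyte markers called lower, and 0 to 1 of the erythroid, megakaryocyte and stromal markers. With the signals as deposited, 9 granulocyte and monocyte markers were lower and 3 higher, 1 erythroid marker was lower, and no megakaryocyte or stromal marker was called. The part that these differences have in the results below was not tested. Stk11, which encodes Lkb1, stood at 7.19, 7.00, 6.69 and 6.45 in KO 4 to 7 against 7.65, 7.17 and 7.37 in the WT arrays, with overlapping groups (-0.56, limma adjusted p = 0.117). Whether its probe set lies in the deleted part is not known, so it does not check the labels.

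The glutathione S-transferase gene Gsta4 fell in KO, 1 gene of the 31 tested, and no member rose. Among all tested genes 2.95% fell and 2.46% rose (5.41% in either direction), so that 1 of 31 (3.23%) lies near the background. In 7 of the 31 genes (22.6%) the KO and WT arrays did not overlap, against 24.1% of all tested genes. An unadjusted p under 0.05 was reached by 7 genes, 3 of them higher and 4 lower in KO, which is again 22.6%, against 25.3% of all tested genes. The median fold change of the 31 was 0.04, against -0.02 over all tested genes, and the median size without regard to sign was 0.14 against 0.18. In whole LSK samples, fewer cells of a type and less RNA per cell cannot be told apart.

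**Figure D1:**
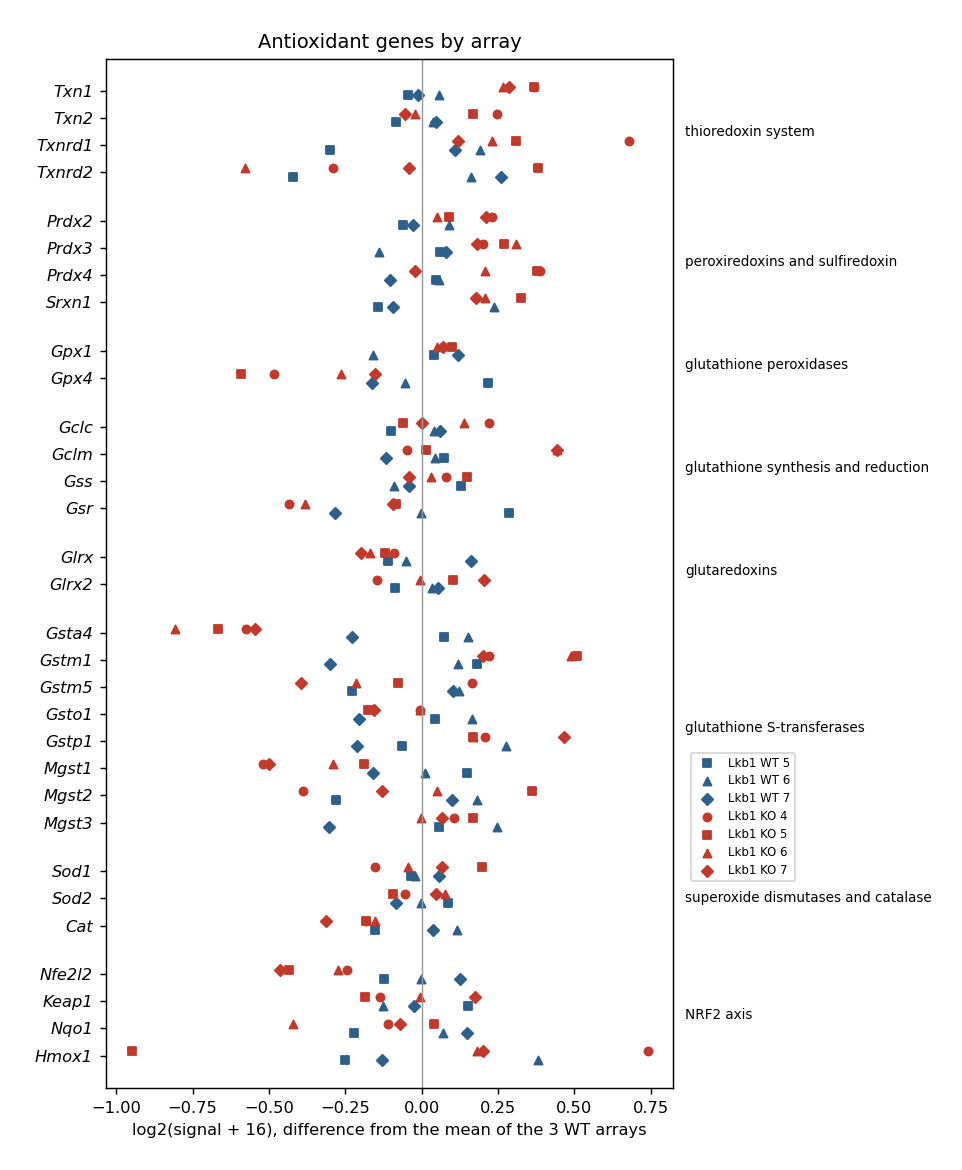
Each row is a tested gene, grouped by role, and each point is an array, as the difference in log2(signal + 16) from the mean of the 3 WT arrays (KO in red, above; WT in blue, below). Gsta4 is the gene with the widest gap between the groups, and in most other rows the colours mix.

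In the thioredoxin system, the gene of cytosolic thioredoxin, Txn1, showed the smallest spread against its difference. Its probe set (1416119_at) gave 13.19, 13.19, 13.09 and 13.11 in KO 4 to 7 and 12.78, 12.88 and 12.81 in the WT arrays 5 to 7. Each KO array lay above each WT array, and the groups did not overlap. The difference of 0.32 (SE 0.08, 95% interval 0.13 to 0.51) missed the threshold with a limma adjusted p of 0.0605. It passed with a pseudocount of 64 (adjusted p = 0.0393), a stricter filter (adjusted p = 0.033), an intensity trend in the prior variance (adjusted p = 0.00321) or the signals as deposited (0.60, adjusted p = 0.0456). A second, much dimmer probe set of Txn1 differed the other way, by -0.43 with overlapping groups (exact permutation p = 0.286), and the mean of both was -0.05. Txnrd1, the cytosolic thioredoxin reductase that restores thioredoxin with NADPH, stood at 8.66, 8.29, 8.21 and 8.10 in KO and 7.68, 8.17 and 8.09 in WT. KO 4 was the highest and WT 5 the lowest array, and the other 5 lay within a narrow band (0.33, SE 0.17, limma adjusted p = 0.256). The mitochondrial pair showed no common direction. Txn2, mitochondrial thioredoxin, was at 0.08 (SE 0.11), and its reductase Txnrd2 at -0.13 (SE 0.25), the latter with KO values from 7.01 to 7.97. A Txn2 probe set nearly as bright (mean 8.46 against 8.54) gave -0.35 (exact permutation p = 0.0857), and a dimmer one gave 0.30 (exact permutation p = 0.2).

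Peroxiredoxins reduce hydrogen peroxide with thioredoxin as the donor. The 3 tested peroxiredoxin genes had differences from 0.14 to 0.24, none of them called. The mitochondrial peroxiredoxin gene Prdx3 stood at 9.74, 9.81, 9.85 and 9.72 in KO and 9.60, 9.40 and 9.62 in WT. The groups did not overlap, with the KO arrays above the WT arrays (0.24, SE 0.09, limma adjusted p = 0.163). Prdx3 passed with the signals as deposited (0.67, adjusted p = 0.0286) and with median centring (0.41, adjusted p = 0.0471). Prdx4, the peroxiredoxin of the endoplasmic reticulum, was at 10.25, 10.24, 10.07 and 9.84 in KO and 9.91, 9.92 and 9.76 in WT. KO 7 lay among the WT arrays, and its 2 other probe sets gave -0.03 and -0.01 (brightest: 0.24, SE 0.12, limma adjusted p = 0.259). The cytosolic Prdx2 was at 0.14 (SE 0.09, limma adjusted p = 0.37). Srxn1, the sulfiredoxin that rescues overoxidised peroxiredoxins, was at 0.22 (SE 0.12, limma adjusted p = 0.273) in its brightest probe set. A dimmer probe set had the same sign, at 0.24 (exact permutation p = 0.4). Another, above background on only 6 arrays, was at -0.83 with overlapping groups (exact permutation p = 0.114). The mean of the Srxn1 probe sets above the filter was at -0.12.

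The glutathione peroxidases reduce peroxides with glutathione, and GPX4 acts on lipid hydroperoxides in membranes. Gpx4 stood at 11.09, 10.98, 11.31 and 11.42 in KO and 11.79, 11.52 and 11.41 in WT. KO 7 and WT 7 were nearly equal, so the groups overlapped (-0.37, SE 0.14, limma adjusted p = 0.148). The dimmer Gpx4 probe set had the opposite sign, at 0.27 (exact permutation p = 0.457), so no direction holds over both. Gpx1, the main cytosolic form, was the most even gene among the KO arrays, from 13.54 to 13.59. Its difference was 0.07 (SE 0.09), and it was -0.10 with cyclic loess and -0.07 with median centring.

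No gene for making or recycling glutathione passed the test. Gclc, the catalytic subunit of glutamate-cysteine ligase and the limiting step of glutathione synthesis, stood at 9.57, 9.29, 9.49 and 9.35 in KO and 9.25, 9.39 and 9.41 in WT. The arrays of both groups were interleaved, and the 95% interval of the difference ran from -0.16 to 0.31 around 0.08 (limma adjusted p = 0.68). Its regulatory partner Gclm was at 0.21 (SE 0.15), with KO 6 and KO 7 both at 8.46 and the other 5 arrays from 7.90 to 8.09. Glutathione synthetase Gss was at 0.05 (SE 0.10). Glutathione reductase Gsr, which returns oxidised glutathione to its thiol form, was at -0.25 (SE 0.16, limma adjusted p = 0.369). Of the glutaredoxins, which use glutathione to reduce protein disulfides, Glrx was at -0.14 (SE 0.10) and the mitochondrial Glrx2 at 0.04 (SE 0.11).

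Of the 8 glutathione S-transferase genes, 3 had positive and 5 negative differences. Gsta4, an alpha-class enzyme known for conjugating the lipid peroxidation product hydroxynonenal, is measured by a single probe set (1416368_at). It stood at 7.31, 7.22, 7.08 and 7.34 in KO 4 to 7, against 7.96, 8.04 and 7.66 in WT 5 to 7. Every KO array was below every WT array, and WT 7 was the lowest of its group. Gsta4 fell by 0.65 on the log2 scale (SE 0.12, 95% interval -0.93 to -0.37, limma adjusted p = 0.026), to 0.637 of the WT level. This placed it at rank 177 of 8077 genes by p. The call was lost without any one of 6 of the 7 samples, where the adjusted p ran from 0.0574 without KO 4 to 0.0753 without WT 6, and held without WT 7 (adjusted p = 0.0382). Without KO 5, KO 6, KO 7 and WT 5 the adjusted p was 0.0625, 0.0606, 0.0648 and 0.0685. With the signals as deposited the difference was -0.29 (adjusted p = 0.333), beside a median of 0.34 over all tested genes. With the Actb ratio added as a covariate the difference was -0.91 (adjusted p = 0.471). That ratio did not overlap between KO and WT, so this fit can hardly tell it apart from genotype. Without a filter on dim probe sets the adjusted p was 0.0627.

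Mgst1, a microsomal transferase with peroxidase activity, stood at 10.04, 10.37, 10.27 and 10.06 in KO and 10.71, 10.57 and 10.40 in WT. Each KO array was lower than each WT array, although KO 5 and WT 7 were close (-0.37, SE 0.12, limma adjusted p = 0.107). It passed only with an intensity trend in the prior variance (adjusted p = 0.0486) among the alternatives tried. Another Mgst1 probe set, below the filter and above background on only 3 arrays, differed the other way (0.41, exact permutation p = 0.0286). Gstm1, a mu-class transferase, stood at 9.38, 9.67, 9.65 and 9.36 in KO and 9.34, 9.28 and 8.86 in WT. The KO arrays were higher without overlap, and WT 7 was the lowest (0.35, SE 0.15, limma adjusted p = 0.181). All 4 Gstm1 probe sets were higher in KO, by 0.16 to 0.35. Genes of the mu class are close in sequence, so signal shared between their probes cannot be told apart. Gstm1 passed with the signals as deposited alone (0.78, adjusted p = 0.0224). The neighbouring family member Gstm5 was at -0.13 (SE 0.15). Gstp1, the pi-class transferase, was at 0.25 (SE 0.14, limma adjusted p = 0.295), with KO 7 at 10.74 and the other KO arrays from 10.44 to 10.48. The differences of Gsto1, Mgst2 and Mgst3 were -0.09, -0.02 and 0.09, and none was called.

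**Figure D2:**
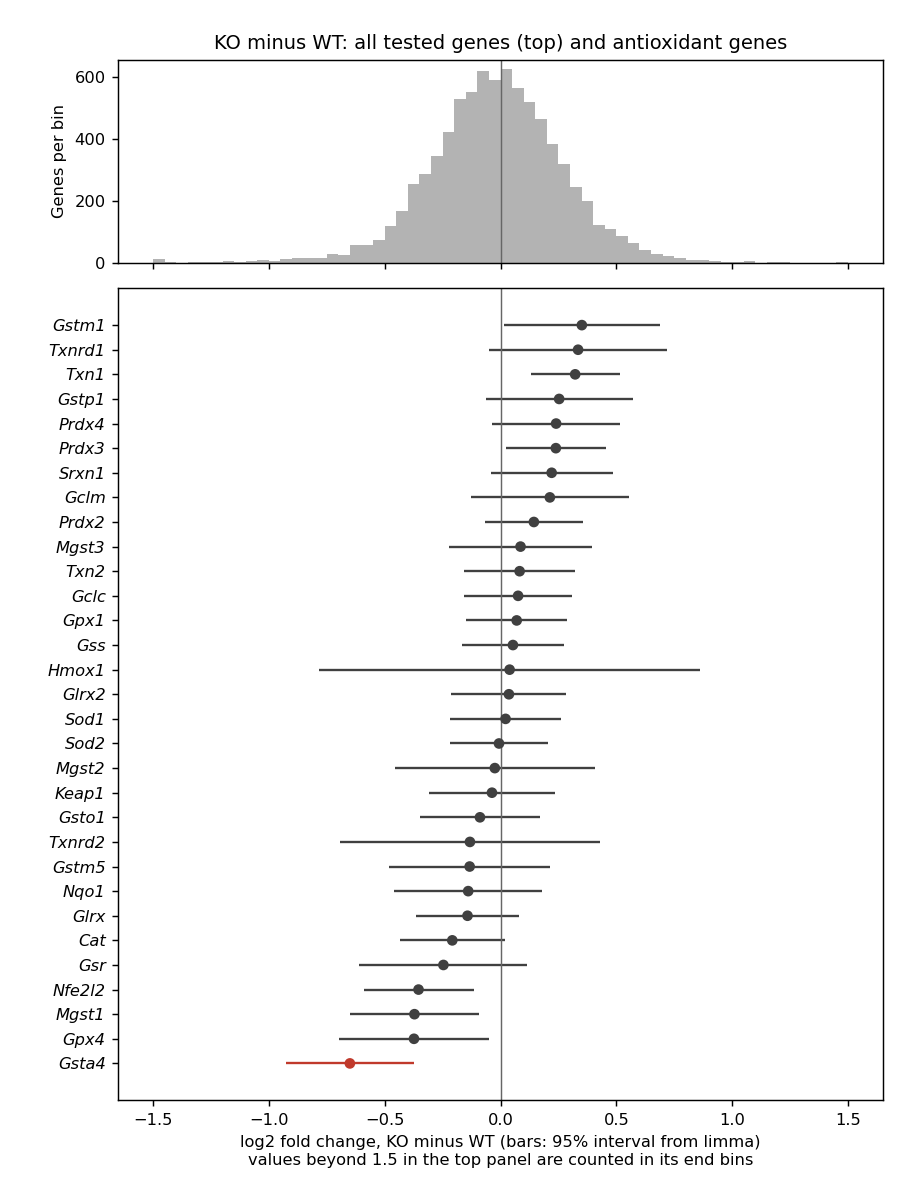
The lower panel gives the log2 fold change (KO minus WT) of each of the 31 genes with its 95% interval from limma, in red where the adjusted p was under 0.05. The upper panel is a histogram of the fold changes of all 8077 tested genes, with values past the axis in the end bins. Gsta4, at -0.65, lies toward the lower tail of that distribution, at percentile 96.5 of all tested genes by size of difference. The other genes lie within its bulk, up to 0.35 for Gstm1.

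Superoxide dismutases turn superoxide into hydrogen peroxide, and catalase breaks hydrogen peroxide down in peroxisomes. The mitochondrial dismutase gene Sod2 stood at 11.76, 11.72, 11.89 and 11.86 in KO and 11.90, 11.81 and 11.73 in WT. The groups covered much the same range, and the 95% interval of the difference of -0.01 ran from -0.22 to 0.20 (limma adjusted p = 0.974). The cytosolic dismutase gene Sod1 was at 0.02 (95% interval -0.22 to 0.26). For both genes a dimmer probe set above the filter had the opposite sign. It was at 0.14 for Sod2 (exact permutation p = 0.257) and at -0.23 for Sod1 (exact permutation p = 0.171). Catalase (Cat) stood at 12.32, 12.32, 12.35 and 12.19 in KO and 12.35, 12.62 and 12.54 in WT. Every KO array was below every WT array, but by the narrowest of gaps, since KO 6 and WT 5 both rounded to 12.35 (-0.21, SE 0.10, limma adjusted p = 0.234). A second Cat probe set gave -0.18 (exact permutation p = 0.0857).

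The NRF2 axis was represented by the factor, its inhibitor and a pair of its best known targets. Nfe2l2 (probe set 1416543_at) stood at 9.87, 9.68, 9.84 and 9.65 in KO and 9.99, 10.11 and 10.24 in WT. Every KO array was below every WT array (-0.35, SE 0.10, 95% interval -0.59 to -0.12), and the gene missed the threshold with a limma adjusted p of 0.0804. It passed with a stricter filter (adjusted p = 0.0476) or an intensity trend (adjusted p = 0.0425), and had the opposite sign with the signals as deposited (0.08, adjusted p = 0.786). Keap1 stood at 9.32, 9.27, 9.45 and 9.63 in KO and 9.61, 9.33 and 9.43 in WT. Its groups were interleaved (-0.04, SE 0.12, limma adjusted p = 0.875). The target Nqo1, a quinone reductase, was dim at 5.70, 5.85, 5.39 and 5.74 in KO and 5.59, 5.88 and 5.96 in WT (-0.14, SE 0.14, limma adjusted p = 0.57). Hmox1, the inducible haem oxygenase, was the most variable of the 31 genes, at 6.35, 4.66, 5.79 and 5.81 in KO and 5.36, 5.99 and 5.48 in WT. KO arrays were both the highest and the lowest, and KO 5 was below background, so the difference of 0.04 has a 95% interval from -0.78 to 0.86 and a change of up to that size was not detectable.

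Promoter sequences (250 bases before to 50 after each gene start, RefSeq, GRCm38.p6) were searched for the core of the antioxidant response element, TGACNNNGC, on both strands. Of 30 members with a window 8 (26.7%) held the core, against 14.0% of all genes with a window and 17.1% of those tested. A gene with several windows counted if any of them held it. Counted by window, 8 of 41 member windows (19.5%) held the core, against 12.4% of all windows. Of the 8, those in Gstm5, Sod1 and Prdx1 are not shown. Gsta4, Gclc, Gsr, Hmox1 and Prdx6 had no window listed and were not searched. The sites below belong to Nfe2l2 itself, to Mgst1 and to a reductase, a sulfiredoxin and a synthesis gene of the list, and are shown to place the motif beside their values. Each is read 5′ to 3′ on the minus strand of the genome, with the core in capitals. They lie at chr2:75704885-75704913 (Nfe2l2), chr6:138140461-138140489 (Mgst1), chr10:82859104-82859132 (Txnrd1), chr2:152105542-152105570 (Srxn1) and chr3:122245413-122245441 (Gclm).
Nfe2l2: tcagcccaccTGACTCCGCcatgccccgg
Mgst1: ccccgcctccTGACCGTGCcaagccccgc
Txnrd1: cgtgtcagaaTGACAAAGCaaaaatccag
Srxn1: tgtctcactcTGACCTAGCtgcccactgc
Gclm: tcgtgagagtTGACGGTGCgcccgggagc

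The genes with the core did not move one way. Of the 7 tested, 4 had positive and 3 negative differences, from -0.37 for Mgst1 to 0.33 for Txnrd1, with a median of 0.02. The 20 tested members whose windows lacked it had a median of 0.05, with 11 positive and 9 negative. Over all tested genes, the 1138 with the core had a median of -0.03, with 520 positive and 618 negative. A match is a description of letters in this window and not a binding site.

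Probe sets of one gene often differed in sign. Of 14 members with at least 2 probe sets above the filter, all probe sets had the same sign in 6 (Cat, Glrx, Glrx2, Gstm1, Gsto1 and Prdx2). In the other 8 the signs differed, most widely in Srxn1, Txn1 and Txn2. Gsta4, Nfe2l2 and Prdx3 have 1 probe set each, so this comparison could not be made for them.

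**Figure D3:**
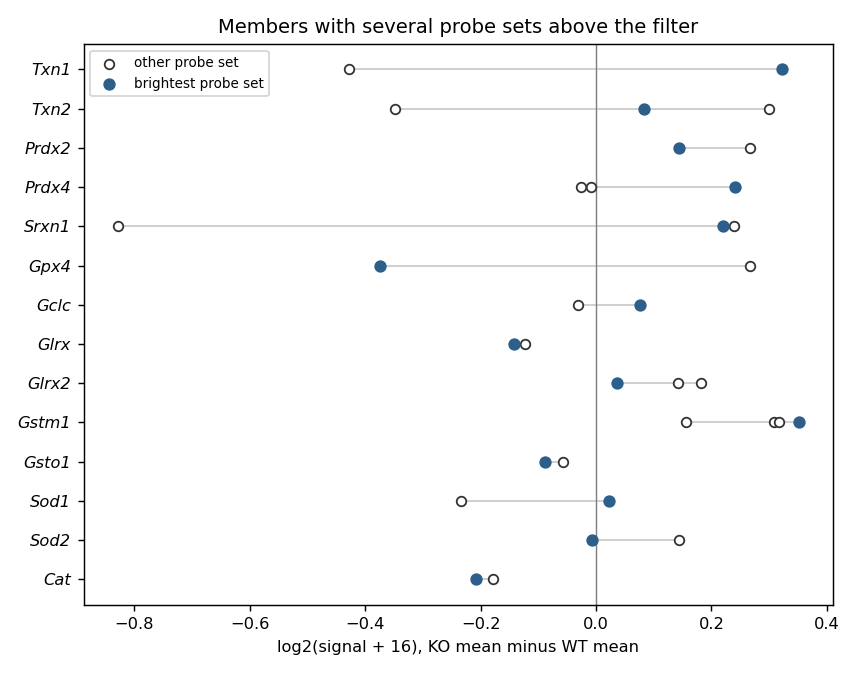
Each row is a gene with several probe sets above the filter, and each point is a probe set, as the KO mean minus the WT mean of log2(signal + 16), filled for the brightest. Points lie on both sides of 0 in 8 of the 14 rows, with Txn1 at 0.32 and -0.43.

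Scaling set the sign for many of these small differences. With the signals as deposited, the median of all tested genes was 0.34, 6 of the 31 genes were called higher (19.4%, against 17.0% of all tested genes) and none lower. The 6 were Gstm1, Gstp1, Prdx3, Prdx4, Txn1 and Txnrd1. Over all tested genes 97.0% of calls were then higher in KO, against 45.5% after quantile normalization and 76.7% with median centring. Only 18 of the 31 genes kept their sign, but relative to the median gene of each scaling 27 did, with Gsta4 the lowest in both. With median centring, where the median of all tested genes was 0.08, 23 kept their sign. Median centring shifts all values of an array by the same amount. Differences relative to the median gene were therefore identical to those with the signals as deposited, and give no second comparison.

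**Figure D4:**
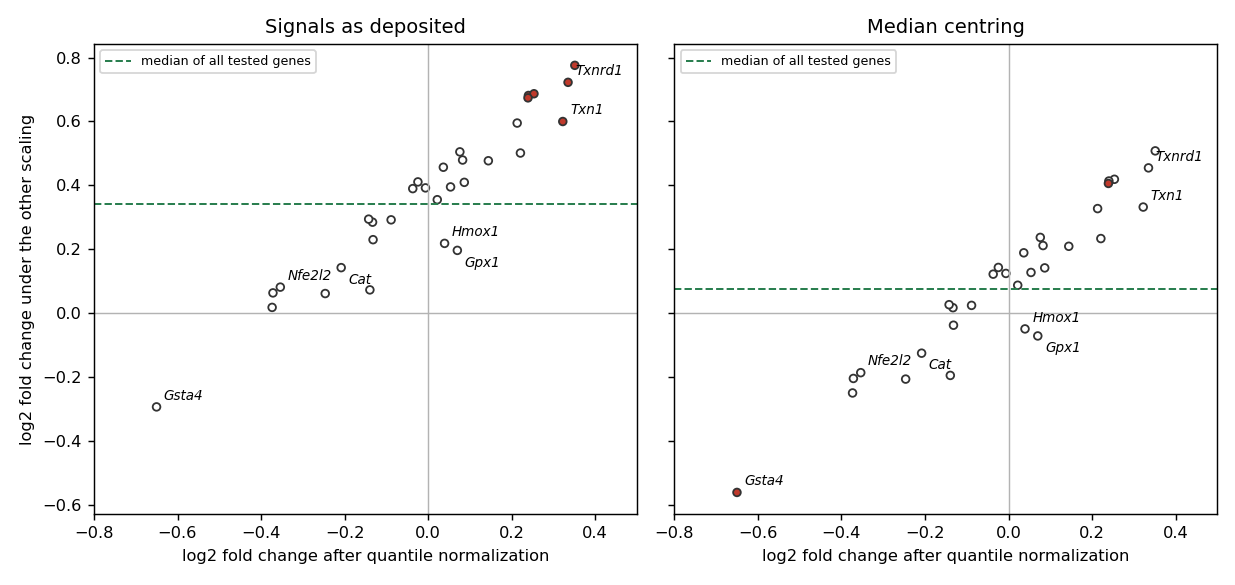
Each point is one of the 31 genes, with its log2 fold change after quantile normalization across and under another scaling up, filled red where the adjusted p was under 0.05. The dashed line is the median of all tested genes, at 0.34 for the signals as deposited and 0.08 for median centring. The fold changes of the panels differ by a constant shift alone, so Gsta4 is the lowest point in both.

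The spread was much like that of other genes. The median SD of the 31 genes was 0.14 in KO and in WT, against 0.15 and 0.17 over all tested genes. The 95% interval lay wholly within 0.5 log2 units of no change, or 1.41-fold, for 18 of the 31 genes (58.1%), against 49.7% of all tested genes. Among the others the interval is widest for Hmox1, Txnrd2 and Txnrd1.

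Other genes of the same pathways were compared by lists of their own, counted against the same 2.95% and 2.46%. In the NRF2 partners, 1 of 10 tested genes fell and none rose. It was Maff, a small Maf protein that binds antioxidant response elements as a dimer, at -0.98 (SE 0.14, limma adjusted p = 0.017), a call lost without KO 7 or WT 7 (highest adjusted p = 0.0543). Bach1, a repressor at the same elements, was at -0.39 (limma adjusted p = 0.0818). Among other thioredoxin-fold and methionine sulfoxide reductase genes 1 of 13 fell. It was Txnip, which encodes an inhibitor that binds thioredoxin.

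Txnip stood at 10.98, 11.01, 11.07 and 10.69 in KO and 11.98, 11.98 and 11.73 in WT. All KO arrays were lower by a wide gap (-0.96, SE 0.12, limma adjusted p = 0.0117). The call held without each of the 7 samples in turn (highest adjusted p = 0.0443), and the difference was -0.57 with the signals as deposited (adjusted p = 0.0731), where 1 gene of that list was called higher and 0 lower.

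Of 9 iron and haem genes 2 fell, namely the iron exporter gene Slc40a1 (-0.82, SE 0.14, limma adjusted p = 0.0236) and Ncoa4, the receptor for breakdown of ferritin (-0.46, SE 0.09, limma adjusted p = 0.0285). Slc40a1 was lost without KO 4, KO 7 or any one WT sample (highest adjusted p = 0.0644), and was at -0.41 with the signals as deposited (adjusted p = 0.17). Ncoa4 was lost without any one sample (highest adjusted p = 0.0778), and was at -0.04 with the signals as deposited, where 2 iron and haem genes were called higher and 0 lower. Of 18 other glutathione genes Ggt5, a gamma-glutamyl transferase that cleaves glutathione conjugates, fell by 0.55 on the log2 scale (SE 0.10, limma adjusted p = 0.0255). It too was lost without any one sample (highest adjusted p = 0.0717), and was at -0.23 with the signals as deposited.

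No gene was called in 4 further lists after quantile normalization. With the signals as deposited, where 17.0% of all tested genes were called higher, 4 of the 8 genes of NADPH supply were called higher, 2 of other peroxide defence and FoxO, 1 of selenoproteins and 2 of oxidant producers. Among 8 genes of NADPH supply the median was 0.21, and the gene of lowest p was the mitochondrial transhydrogenase gene Nnt at -0.27 (limma adjusted p = 0.0895). Among 12 genes of other peroxide and superoxide defence and the FoxO factors the median was 0.01, with the sestrin gene Sesn1 at -0.34 (limma adjusted p = 0.0615). Among 10 genes of selenoproteins and their synthesis the median was -0.09, with the selenium carrier gene Selenop at -0.32 (limma adjusted p = 0.0694). Among 9 oxidant producers the median was 0.15, with Ncf4, a cytosolic subunit of the phagocyte NADPH oxidase, at 0.42 (limma adjusted p = 0.0853).

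**Figure D5:**
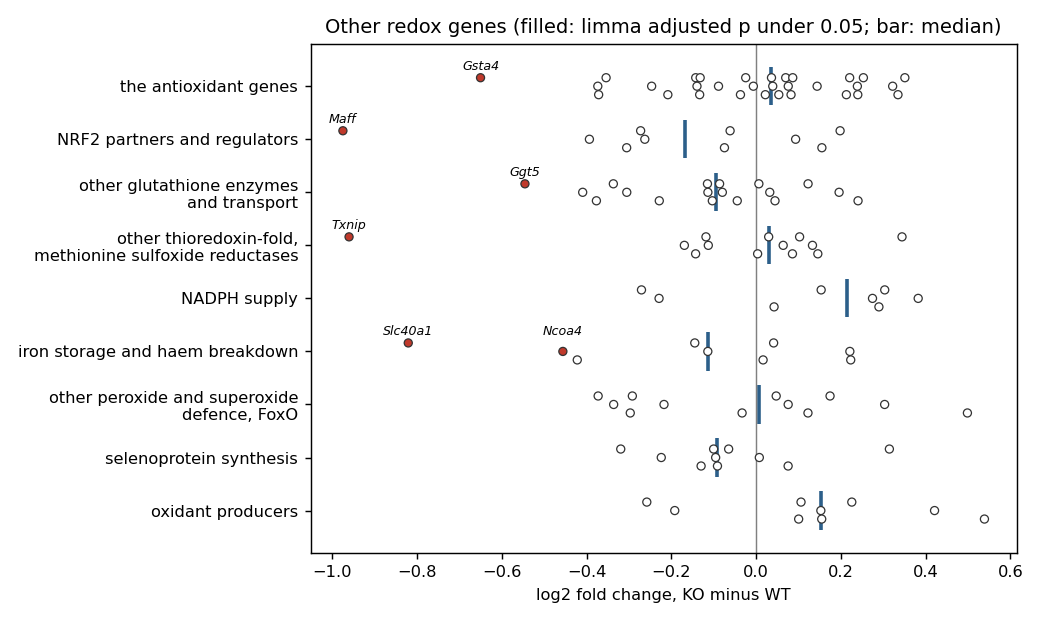
Each point is a tested gene and each row a list, with the log2 fold change (KO minus WT) across, filled red at an adjusted p under 0.05, and a bar at the list's median. All 6 filled points, Gsta4, Maff, Ggt5, Txnip, Slc40a1 and Ncoa4, lie below 0.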

How the data were processed

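RNA of 7 LSK samples, 15000 to 20000 sorted cells each, was amplified from about 10 ng of total RNA and hybridised to 1 array per sample, per the labels' protocols. The deposited values are linear signal intensities, 1 per array and probe set. MAS5 is the tool in the submitters' processing notes, with settings not stated there. Of 22690 probe sets, 64 were controls, 20380 had 1 gene symbol, 691 several and 1555 none, and 20364 matched the RefSeq gene table of GRCm38.p6 for current names.

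The signals were quantile-normalized over non-control probe sets and analysed as log2(signal + 16), which understates changes of dim genes. Probe sets with a mean above the 40th percentile were kept, and the brightest by mean over the 7 arrays stood for its gene. KO and WT were tested by limma (version 3.58.1, R 4.3.3; intercept and genotype, 5 residual degrees of freedom, two-sided), with Benjamini-Hochberg adjustment over genes. Single values were compared by two-sided exact permutation over 35 arrangements of the arrays, with a smallest p of 0.0286. Background is the 95th percentile of 189 readings from 27 bacterial control probe sets. The number of arrays limits the precision.

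The members, lists, scaling and tests were chosen with earlier results of these data known. Genes given in full are those called, the 10 members of lowest p and Nfe2l2, Keap1, Txn1, Sod2, Cat, Hmox1, Nqo1 and Gclc. From the lists of other pathway genes the called genes, or else the gene of lowest p, and Txnip were named. Bach1 was named after its value was seen, as were Kit, Hlf, Cd34, Flt3, Csf1r, Itgam, Cd14 and Fcgr3. Other cell type markers are given as counts. Alternatives covered the pseudocount, scaling, filter, probe set choice, prior variance, array weights, replicate number, the Actb ratio and leaving out each sample.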

Additional observations from a re-analysis of the deposited data

Results flagged for a closer look

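Gstp1 in Lkb1 KO 7 stood apart from the other KO arrays: its gap to the nearest one was 0.852 of the range of the 4 KO values, past the 95% critical value of Dixon's test. Chance gives about 1 such gene in 20, and 31 genes were examined. The groups of 3 WT arrays are too small for this test.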

How the results depend on the processing

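Over all tested genes 199 were called higher and 238 lower in KO, and over the 31 members 0 and 1, with a member median of 0.04. The values that moved follow by setting, and no cause was tested unless given. With a pseudocount of 64, 322 genes were higher and 372 lower, and 1 member was higher. With the signals as deposited, 1372 were higher and 43 lower, 6 members were higher and 0 lower, and the member median was 0.39. There the differences were 0.14 (Cat), 0.29 (Glrx), 0.018 (Gpx4), 0.061 (Gsr), 0.28 (Gstm5), 0.29 (Gsto1), 0.39 (Keap1), 0.063 (Mgst1), 0.41 (Mgst2), 0.081 (Nfe2l2), 0.073 (Nqo1), 0.39 (Sod2) and 0.23 (Txnrd2), all of opposite sign to the quantile-normalized ones. With median centring 545 genes and 1 member were higher, the member median was 0.12, and the signs turned for Glrx (0.026), Gpx1 (-0.071), Gstm5 (0.017), Gsto1 (0.024), Hmox1 (-0.049), Keap1 (0.12), Mgst2 (0.14) and Sod2 (0.12). Cyclic loess turned Gpx1 (-0.097) and Sod2 (0.026), and a pseudocount of 1 turned Hmox1 (-0.042). The mean of probe sets gave a member median of -0.0245 and turned Sod1 (-0.11), Sod2 (0.069), Srxn1 (-0.12) and Txn1 (-0.053). Without a filter, where more genes were tested, 18 genes were higher and 38 lower, and 0 members were lower (limma, with 2218 genes at an unadjusted p under 0.05). With a filter at the 60th percentile, which tested 26 members, 356 genes and 1 member were higher and 2 members lower. An intensity trend gave 444 higher and 444 lower genes, with 1 member higher and 3 lower.

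The Actb ratio did not overlap between KO and WT, so a fit can hardly tell it apart from genotype. With the Actb ratio as a covariate limma called 0 genes higher, 0 lower and 0 members lower (713 genes at an unadjusted p under 0.05). The member median was then -0.052, with opposite signs for Gclc (-0.042), Gstp1 (-0.042), Hmox1 (-1.05), Keap1 (0.0032), Mgst2 (0.32), Mgst3 (-0.063), Prdx2 (-0.090), Sod2 (0.044), Txn2 (-0.052) and Txnrd1 (-0.065). The replicate block, which leaves KO 4 without a partner, called 0 genes higher, 1 lower and 0 members lower (1693 genes at an unadjusted p under 0.05), with Gsta4 at -0.67 (adjusted p = 0.127) and opposite signs for Hmox1 (-0.19), Mgst2 (0.097) and Sod2 (0.0083). The correlation of deviations from the group means was 0.0291, 0.0985 and 0.0502 between KO and WT samples of the same number 5, 6 and 7. Between unlike numbers from 5 to 7 it was -0.07 to -0.00671. WT 5 correlated best with KO 4 (0.0656). These small values do not settle whether the numbers pair the samples.

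Leaving out each sample in turn, which leaves fewer arrays, gave 8 to 74 genes higher and 34 to 113 lower, 0 to 0 members higher and 0 to 1 lower, and member medians from 0.0049 to 0.042. Of the 437 called genes, 31 were called in each of these 7 fits. The ranges that cross 0 were -0.020 to 0.099 (Glrx2), -0.0094 to 0.13 (Gpx1), -0.19 to 0.37 (Hmox1), -0.11 to 0.038 (Keap1), -0.16 to 0.097 (Mgst2), -0.065 to 0.21 (Mgst3), -0.038 to 0.078 (Sod1), -0.049 to 0.037 (Sod2) and -0.34 to 0.018 (Txnrd2). Gsta4 kept its sign in all 21 alternatives and was called in 11. Signals near background limit Hmox1 and Nqo1.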
